A study of Homo sapiens with 12 samples.

Results

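The genes described here belong to peptide and neurotrophin signalling and were followed in HEYA8, an established line of human ovarian cancer cells: SCG2, SCG5, PCSK1, VGF, BDNF, KISS1, NTSR1 and NTS. These 8 genes were chosen by name, with their response to the drug in these data known, so their drug differences are given as a description without a p-value. Of the 8 names, 7 matched a gene among the 21207 in the table; NTS had no value and its level was not analysed here. The cells had been kept for 48 h in medium with colforsin daropate, a water-soluble forskolin derivative that stimulates adenylyl cyclase, at 0, 1, 5 or 10 µM. There were 3 libraries of total RNA per dose, depleted of ribosomal RNA, and the 0 µM group is called vehicle. All libraries came from this 1 line, with no genetic change named in the labels. The submitters call the 3 libraries of a group biological replicates, and each title also carries a number (6, 8 or 11) that recurs at every dose. What this label number marks is not stated, and libraries are paired by it below.

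Neuropeptides and neurotrophins are made as longer precursors, packed into dense-core granules with granin proteins, cut by prohormone convertases and released on stimulation. Their receptors sit on the surface of the same or of other cells. Cyclic AMP (cAMP), the product of adenylyl cyclase, activates protein kinase A, which phosphorylates the transcription factor CREB. CREB binds the cAMP response element, and VGF, BDNF and SCG2 are well known as genes that such signals can induce in neurons and endocrine cells.

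The cAMP response element was searched for as TGACGTCA, a palindrome that reads the same on both strands, and its half-site as TGACG or CGTCA. The windows were the 250 bases before each transcription start in the RefSeq promoter table (GRCh38.p14). The table had an entry for SCG5, PCSK1, VGF, BDNF, KISS1, NTSR1 and NTS. The following stretches are the 100 bases before the start, read 5′ to 3′ on the strand of the gene, with the motif letters in capitals. VGF and PCSK1 are shown for the full element, and BDNF and KISS1 for a half-site at nearly the same distance. The stretches were picked with the drug response of these genes known, and the part of the motif in it was not tested.
VGF: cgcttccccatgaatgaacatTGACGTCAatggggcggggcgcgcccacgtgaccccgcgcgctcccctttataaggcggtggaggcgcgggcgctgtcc
PCSK1: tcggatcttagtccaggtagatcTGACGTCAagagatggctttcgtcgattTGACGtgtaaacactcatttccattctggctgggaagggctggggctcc
BDNF: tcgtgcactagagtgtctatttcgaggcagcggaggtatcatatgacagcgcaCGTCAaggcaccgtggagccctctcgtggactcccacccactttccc
KISS1: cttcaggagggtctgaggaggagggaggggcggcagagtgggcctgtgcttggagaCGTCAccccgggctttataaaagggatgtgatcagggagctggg

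These stretches are chr7:101165570-101165669 (VGF), chr5:96433249-96433348 (PCSK1), chr11:27701622-27701721 (BDNF) and chr1:204196492-204196591 (KISS1), all on the minus strand. Each is upstream of the RefSeq start used. In GENCODE 29, whose gene spans are given with each gene below, the PCSK1 and BDNF stretches lie inside the gene, which has further starts upstream, the VGF stretch overlaps the first bases of the gene, and the KISS1 stretch lies outside it. The full element began 79 bases before the start of VGF and 77 bases before 1 of 2 listed starts of PCSK1, which had a further half-site 49 bases before it. BDNF had a half-site 47 bases before 1 of its 5 starts, and KISS1 had one 44 bases before its start. SCG5 had a half-site 17 bases before its start and NTS had half-sites at 234 and 192 bases. These letters were not found in the NTSR1 window. Of 35116 promoter windows of this length, 578 (1.65%, Wilson 95% interval 1.52% to 1.78%) held the full element and 7451 (21.2%) held a half-site. A match is a run of letters and was not tested as a binding site.

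**Figure D1:**
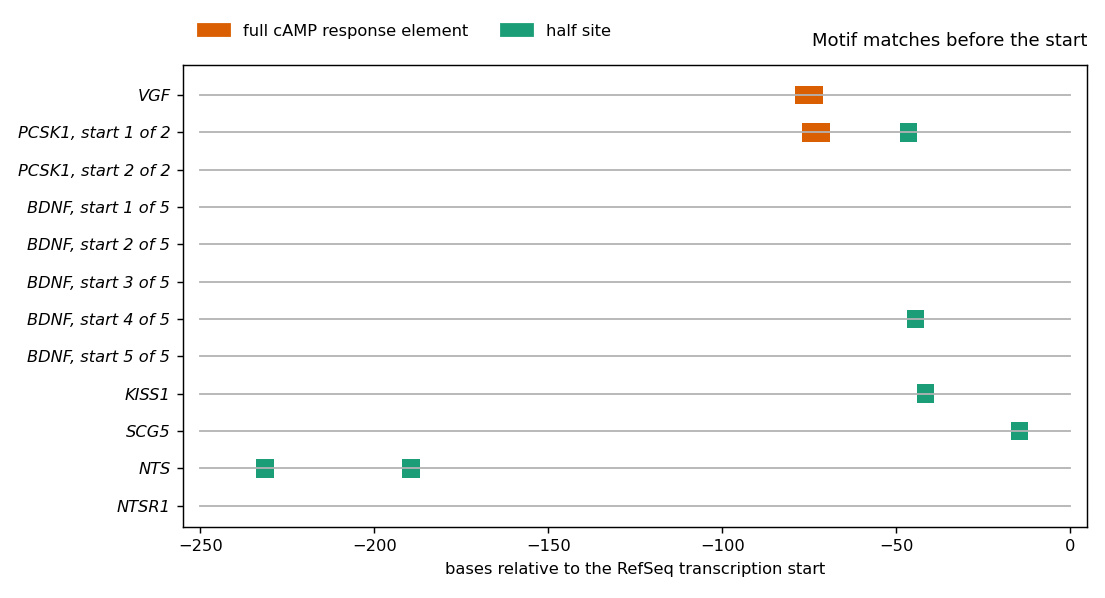
Matches to the cAMP response element (orange, 8 bases) and its half-site (green, 5 bases) in the 250 bases before each RefSeq start, with 1 row per start and the x axis in bases relative to it. The full element stands 79 bases before VGF and 77 bases before 1 start of PCSK1, and BDNF and KISS1 each show a half-site at 47 and 44 bases.

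The deposited values are variance-stabilised by the authors: for abundant genes 1 unit is a doubling, while near the lowest value in the table (4.86) the scale flattens and a difference understates the fold. Normalised counts were recovered from these values and are used for folds. In bulk RNA, fewer cells with a transcript and less transcript per cell cannot be told apart. Vehicle library 6 was the shallowest, with a recovered depth of 24.0 megareads on genes, and the others had 31.2 to 48.6. PAX8 (12.5 to 13.6), KRT8 (13.1 to 14.5) and vimentin (VIM, 17 to 18.7) were high in every library, EPCAM was near the table minimum at 5.45 to 5.72, and MUC16, WFDC2 and CDH1 had no value. Of 20 neuronal and neuroendocrine markers 9 had a value, and the endocrine markers CHGA, CHGB and INSM1 were among those without one. The summed normalised count of that list was 17340 to 18851 without drug, and 17807 to 21515, 22566 to 24213 and 23044 to 24625 with 1, 5 and 10 µM, most of it from UCHL1. Of its 8 tested genes, UCHL1 rose and ENO2 and RBFOX3 fell at 10 µM (limma adjusted p = 0.00110, 0.00367 and 0.0178). None of the 3 passed without all libraries of number 8. With the label number as a replicate block in the fit, 4 of the 8 rose and 3 fell. The block added L1CAM (0.89), NCAM1 (0.57), SYN1 (0.31) and SYT1 (-1.26). Over all tested genes 22.6% were called at 10 µM, and 38.4% with the block. Markers of the line itself also moved at 10 µM, where 2 of 6 tested rose and 2 fell, with or without the block. PAX8 rose by 0.70 and KRT7 by 1.13, KRT8 fell by 0.83 and KRT18 by 0.73 (limma adjusted p = 0.0108, 0.0368, 0.00519 and 0.0288). Of 6 mesenchymal markers FN1 (1.93), CDH2 (1.30) and SPARC (1.23) rose and VIM (-0.93) fell (limma adjusted p = 9.85e-04, 7.59e-04, 0.0186 and 0.0239), and VWF, an endothelial marker, fell by 0.84 (0.00558). The other tested endothelial markers, CDH5 and PECAM1, were higher by 0.47 and 0.22 and did not pass (limma adjusted p = 0.526 and 0.784). Without number 8 only CDH2 of the 9 called markers from PAX8 to VWF still passed. FN1 also did not pass after quantile normalisation (limma adjusted p = 0.114). The part of these markers in the levels below was not tested.

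SCG2 went from a handful of reads to a well-expressed transcript. SCG2 encodes secretogranin II, a granin of dense-core granules and the precursor of secretoneurin (ENSG00000171951, chr2:223596940-223602503, minus strand, GENCODE 29 on GRCh38). Its stabilised value in vehicle was 5.90, 5.76 and 5.40 in libraries 6, 8 and 11, from only 10, 13 and 5 reads. At 1 µM it was 8.12, 6.10 and 6.61. Library 6 stood well above the other 2 at this dose, and all 3 were above the vehicle range. At 5 µM it was 9.35, 8.09 and 8.10, and at 10 µM 9.75, 8.61 and 8.76. Each step in dose was upward within every label number, although the ranges of 1 and 5 µM and of 5 and 10 µM overlapped. The mean normalised count was 10.4 ± 5.89 in vehicle and 505 ± 259 at 10 µM (SD, n = 3 each), a ratio of 48.4, with ratios of 9.39 at 1 µM and 33.0 at 5 µM. The 1 µM ratio was 4.53 without label number 6 and 13.75 without number 8. Within numbers 6, 8 and 11 the ratio was 14.2, 1.96 and 11.9 at 1 µM, and 51.3, 28.9 and 93.0 at 10 µM. All these ratios stand on vehicle values of 5 to 13 reads and are rough. The stabilised difference at 10 µM was 3.35 ± 0.50 (SE), and within label numbers it was 3.85, 2.85 and 3.36. SCG2 was near the table minimum, meaning at most 1 unit above it, in 2 of 12 libraries, both vehicle.

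SCG5 stayed at the bottom of the table. SCG5 encodes a small granule protein that acts as a chaperone of the prohormone convertase PCSK2 (ENSG00000166922, chr15:32641676-32697098, plus strand). The stabilised values were 6.36, 5.83 and 5.87 in vehicle and 5.26, 5.81 and 5.90 at 1 µM, then 5.48, 5.57 and 5.55 at 5 µM and 5.16, 5.24 and 5.32 at 10 µM, for libraries 6, 8 and 11. All 3 libraries at 10 µM were below every vehicle library, whereas the 1 µM range overlapped that of vehicle. Behind these values were 22, 15 and 18 reads in vehicle and 1, 2 and 3 reads at 10 µM, so no fold is given. The stabilised difference at 10 µM was -0.78 ± 0.18 (SE). SCG5 was near the table minimum in 9 of 12 libraries and entered the model through 3 libraries only, 2 of them vehicle.

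PCSK1 moved little. It encodes a prohormone convertase that makes the first cuts in many neuropeptide precursors (ENSG00000175426, chr5:96390415-96434143, minus strand). Its stabilised values were 6.61, 5.83 and 6.0 in vehicle and 6.44, 6.17 and 5.83 at 1 µM, then 6.39, 6.37 and 6.44 at 5 µM and 6.52, 6.33 and 6.68 at 10 µM. The ranges of all 4 groups overlapped. Between 13 and 54 reads stood behind each value, and 2 of 12 libraries were near the table minimum. The difference at 10 µM was 0.36 ± 0.20 (SE), made of -0.09, 0.50 and 0.68 in label numbers 6, 8 and 11. PCSK1 thus had no common direction across the label numbers. The full element stands before 1 of its 2 listed starts, and which start was used was not tested.

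VGF was higher at every dose within each label number. VGF encodes a granin-like precursor named for its induction by nerve growth factor (ENSG00000128564, chr7:101162509-101165593, minus strand). In libraries 6, 8 and 11 its stabilised value was 5.94, 6.98 and 7.17 in vehicle, and 6.81, 8.51 and 8.51 at 1 µM. It was 7.39, 8.95 and 8.83 at 5 µM and 7.83, 9.45 and 8.89 at 10 µM. Library 6 was the lowest of the 3 in all 4 groups, and for this reason the vehicle and 1 µM ranges overlapped although every pair differed upward. The mean count was 61.1 ± 39.2 in vehicle and 226 ± 143, 317 ± 177 and 411 ± 235 at 1, 5 and 10 µM (SD, n = 3 each), or 3.70, 5.19 and 6.73 times vehicle. The stabilised difference at 10 µM was 2.03 ± 0.58 (SE), and 1.89, 2.47 and 1.72 within label numbers. The lowest VGF value, 11 reads in vehicle library 6, was 1.08 above the table minimum.

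BDNF, the brain-derived neurotrophic factor, was higher by a similar amount in all 3 label numbers. It is the secreted ligand of the receptor kinase TrkB (NTRK2), and its precursor also binds NGFR and sortilin (ENSG00000176697, chr11:27654893-27722058, minus strand). Its stabilised value was 9.75, 10.0 and 10.2 in vehicle and 10.7, 11.1 and 11.1 at 1 µM, then 11.6, 11.8 and 11.8 at 5 µM and 11.3, 11.8 and 11.9 at 10 µM. Vehicle, 1 µM and 5 µM did not overlap one another, and 5 and 10 µM did. The mean count went from 963 ± 157 in vehicle to 1960 ± 307, 3354 ± 266 and 3245 ± 689 (SD, n = 3 each), which is 2.04, 3.48 and 3.37 times vehicle. Differences at 10 µM within label numbers were 1.55, 1.80 and 1.70, with a mean of 1.68 ± 0.17 (SE). BDNF-AS, a gene on the opposite strand, shares 701 exon bases with BDNF and lay between 8.39 and 9.99. Whether the counting used strand is not given in the sources used here, and ambiguous reads were counted apart from genes. Whether reads of that stretch went to BDNF, to BDNF-AS or to neither is therefore not known. The BDNF level is uncertain to that extent.

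KISS1 moved the other way. It encodes the precursor of kisspeptins, ligands of KISS1R, which start the reproductive hormone cascade and were described as suppressors of metastasis (ENSG00000170498, chr1:204190341-204196486, minus strand). Its stabilised value was 10.3, 9.16 and 9.21 in vehicle and 9.25, 7.15 and 7.44 at 1 µM, then 7.67, 6.55 and 6.96 at 5 µM and 7.87, 6.35 and 6.49 at 10 µM. Library 6 was the highest in all 4 groups, so its 1 µM value lay inside the vehicle range while each label number on its own was lower. Mean counts were 751 ± 391 in vehicle and 254 ± 259 at 1 µM, then 89.0 ± 54.3 at 5 µM and 84.7 ± 82.0 at 10 µM (SD, n = 3 each). Vehicle was 2.96, 8.44 and 8.87 times the 1, 5 and 10 µM means. Without label number 6 these ratios were 5.0, 8.94 and 14.1, and at 10 µM they were 6.71, 15.3 and 13 within numbers 6, 8 and 11. The stabilised difference at 10 µM was -2.65 ± 0.57 (SE), and -2.43, -2.81 and -2.72 within label numbers. KISS1 was never near the table minimum, its lowest value being 1.49 above it, and its receptor KISS1R had no value.

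NTSR1 was lower too, but mainly from 5 µM on. NTSR1 is the high-affinity G protein-coupled receptor of neurotensin, the peptide made from NTS (ENSG00000101188, chr20:62708837-62762771, plus strand). Its stabilised value was 9.56, 9.65 and 9.68 in vehicle, a narrow range, and 9.06, 9.56 and 9.47 at 1 µM. At 5 µM it was 7.40, 8.38 and 8.69, and at 10 µM 7.31, 8.42 and 8.17. The ranges of vehicle and 1 µM met at 9.56, and both higher doses lay below them. Mean counts were 736 ± 33.9, 609 ± 116, 250 ± 123 and 208 ± 92.9 at 0, 1, 5 and 10 µM (SD, n = 3 each), and vehicle was 1.21, 2.94 and 3.53 times the dosed means. The stabilised difference at 10 µM was -1.66 ± 0.32 (SE), and -2.25, -1.23 and -1.51 within label numbers. The second neurotensin receptor gene, NTSR2, had no value.

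**Figure D2:**
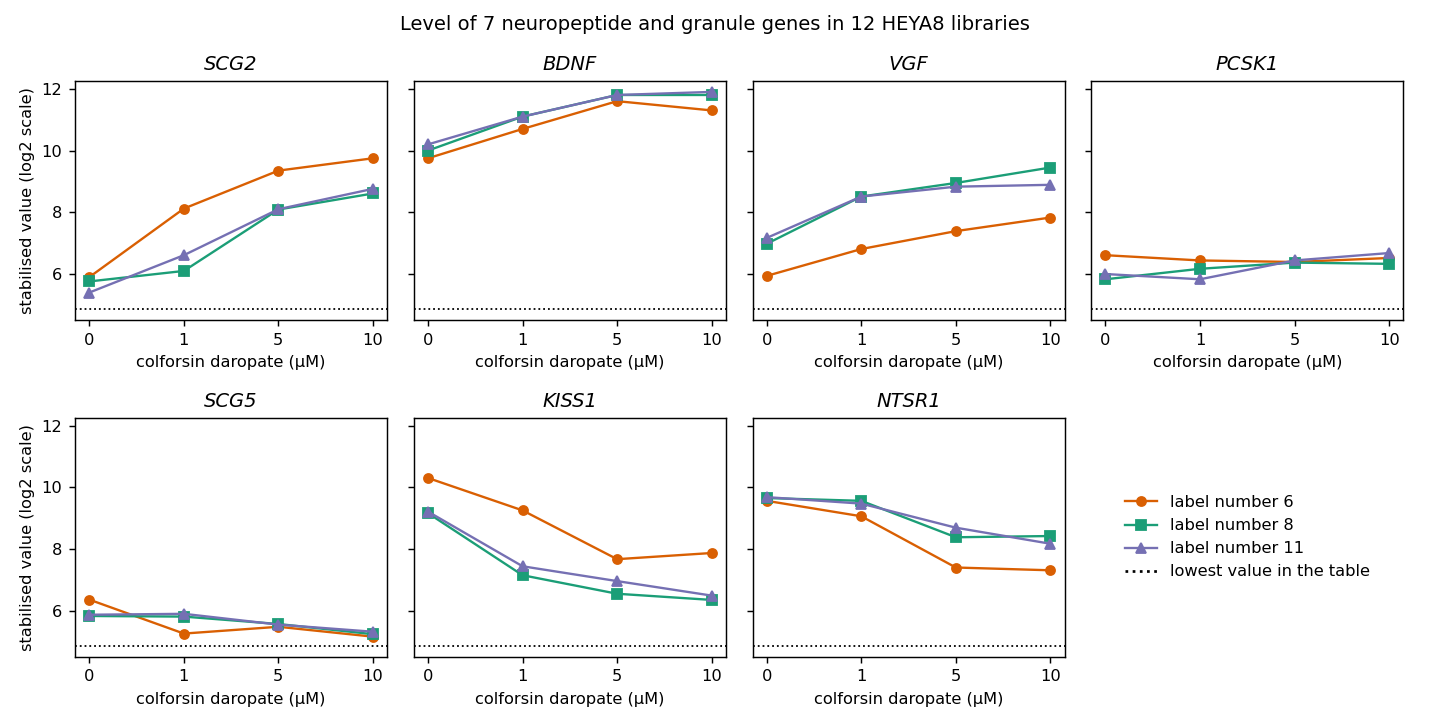
Stabilised value (log2 scale, y axis) of the 7 genes in each of the 12 libraries at 0, 1, 5 and 10 µM colforsin daropate (x axis, doses evenly spaced), with libraries of 1 label number joined by a line and the table minimum of 4.86 dotted. SCG2, BDNF and VGF climb and KISS1 and NTSR1 descend, while SCG5 and PCSK1 lie close to the minimum.

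Set side by side, SCG2 and BDNF were higher and KISS1 and NTSR1 lower than vehicle in 9 of 9 dosed libraries paired by label number, but their courses over dose differed. By 1 µM BDNF had covered 61.3%, 61.1% and 52.9% of its 10 µM difference in label numbers 6, 8 and 11, on the stabilised scale. KISS1 had covered 43.2%, 71.5% and 65.1%. For NTSR1 the shares were 22.2%, 7.32% and 13.9%, below those of BDNF and KISS1 in each label number. SCG2 varied most, at 57.7%, 11.9% and 36.0%. From 5 to 10 µM BDNF changed by -0.30, 0 and 0.10, and KISS1 by 0.20, -0.20 and -0.47. SCG2 was still 0.40, 0.52 and 0.66 higher at 10 than at 5 µM. These shares compare dosed libraries with 1 vehicle library each, so each set of 3 shares that library.

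Per kilobase of exon, the normalised count orders the genes by level. In vehicle the order was KISS1 at 1060 ± 552 (SD, n = 3), NTSR1 at 174 ± 8.01, BDNF at 124 ± 20.3, VGF at 22.6 ± 14.5, SCG5 at 9.48 ± 5.28, PCSK1 at 5.06 ± 3.50 and SCG2 at 3.84 ± 2.16. From VGF down, neighbours in this order did not differ beyond their spread. At 10 µM it was BDNF at 419 ± 89.0, SCG2 at 186 ± 95.4, VGF at 152 ± 86.8, KISS1 at 119 ± 116, NTSR1 at 49.2 ± 21.9, PCSK1 at 8.04 ± 1.87 and SCG5 at 0.931 ± 0.388. From SCG2 to NTSR1, neighbours did not differ beyond their spread there. KISS1 was thus the highest of the 7 in vehicle and BDNF the highest at 10 µM. Most of the spread of KISS1 in vehicle lay between library 6, with a stabilised value of 10.3, and the others at 9.16 and 9.21.

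**Figure D3:**
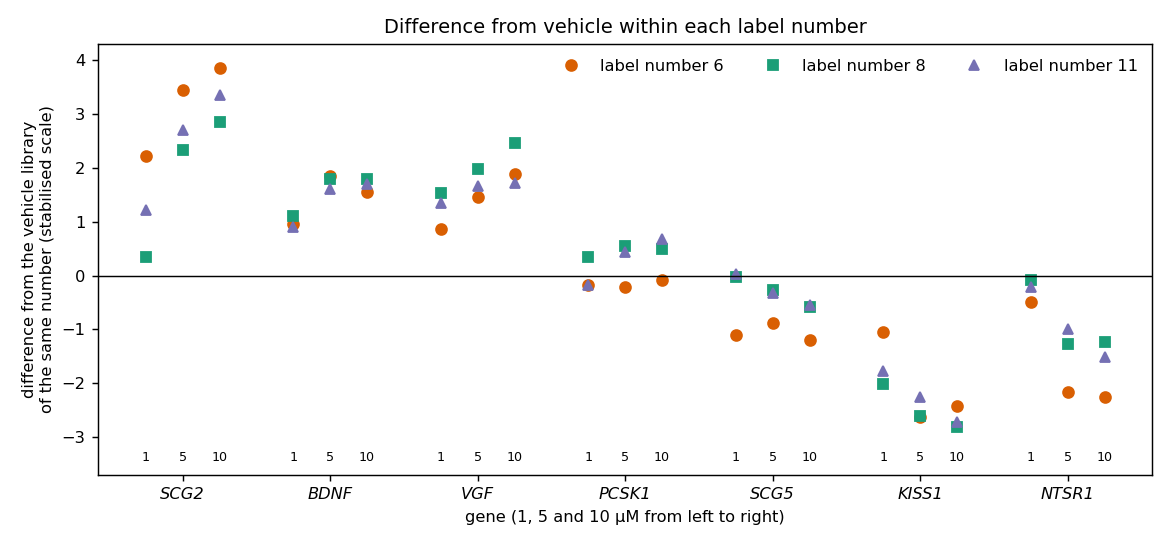
Difference of each dosed library from the vehicle library of the same label number (y axis, stabilised scale) for 7 genes, with 1, 5 and 10 µM from left to right within each gene (x axis). All 9 points lie above 0 for SCG2, BDNF and VGF and below 0 for KISS1 and NTSR1, and the NTSR1 points at 1 µM (-0.50, -0.09 and -0.21) lie near 0.

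The limma model over all 17767 genes that passed the filter on low values called 1 of the 7 genes at 1 µM (BDNF), where 1.80% of all genes were called. At 5 µM it called 4 (SCG2, BDNF, KISS1 and NTSR1) against a background of 15.1%, and at 10 µM 6 (all but PCSK1) against 22.6%. With the label number as a replicate block these counts were 4, 5 and 6 (backgrounds 12%, 30.6% and 38.4%). The genes were chosen on these contrasts, and nothing is read from the counts. Without all libraries of number 8, or all of number 11, 0, 1 and 2 of the 7 were called at 1, 5 and 10 µM, with 2 libraries left per group. Without number 6 they were 4, 5 and 7. The single call at 1 µM was also lost without vehicle library 8, without 1 µM library 8 or without 1 µM library 11. Over all tested genes, 18.3%, 29.2% and 33.8% had a 1, 5 or 10 µM range that did not overlap the vehicle range.

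The label number is balanced over dose and was not used to choose the genes, so it was tested. Each number has 1 library per dose, so its libraries at the 4 doses serve as repeats. The p-values measure the spread between these libraries and do not cover what would vary between further label numbers. SCG2 and KISS1, which moved in opposite directions with the drug, were both higher in label number 6. Averaged over the 4 groups, SCG2 was 8.28 in number 6 and 7.18 over numbers 8 and 11, a difference of 1.10 ± 0.18 (SE; limma adjusted p = 5.93e-04). KISS1 was 8.77 and 7.41, a difference of 1.36 ± 0.13 (limma adjusted p = 1.46e-05). Both were above the other 2 libraries in 4 of 4 groups. VGF (6.99 against 8.41), NTSR1 (8.33 against 9.0) and BDNF (10.8 against 11.2) were lower in number 6 in 4 of 4 groups. Their differences were -1.42 ± 0.11, -0.67 ± 0.14 and -0.38 ± 0.06 (SE; limma adjusted p = 2.41e-06, 0.00277 and 3.61e-04). PCSK1 (0.28 ± 0.13) and SCG5 (-0.07 ± 0.13) did not pass (limma adjusted p = 0.0932 and 0.696). This gave 5 of 7 genes called, where 39.0% of all tested genes were.

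Over all 3 label numbers the F test gave limma adjusted p = 9.98e-06 for VGF, 5.53e-05 for KISS1, 0.00124 for BDNF, 0.00217 for SCG2 and 0.00955 for NTSR1, and 30.8% of all genes passed. The NTSR1 call was lost without 5 µM library 6 (limma adjusted p = 0.0581). Between numbers 8 and 11 limma called 0 of the 7 genes and 0 of 17767 in all, with 873 genes and none of these 7 at an unadjusted p under 0.05. The label number difference was large beside the drug difference for some genes: -1.42 for VGF, where 10 µM gave 2.03, and 1.36 for KISS1, where 10 µM gave -2.65. For BDNF it was small, -0.38 beside 1.68. Label number 6 was also the shallowest in all 4 groups, at 24.0, 34.9, 34.8 and 31.2 megareads on genes at 0, 1, 5 and 10 µM against 37.1 to 48.6 in the other 8 libraries, and the part of depth in the number 6 values was not tested.

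**Figure D4:**
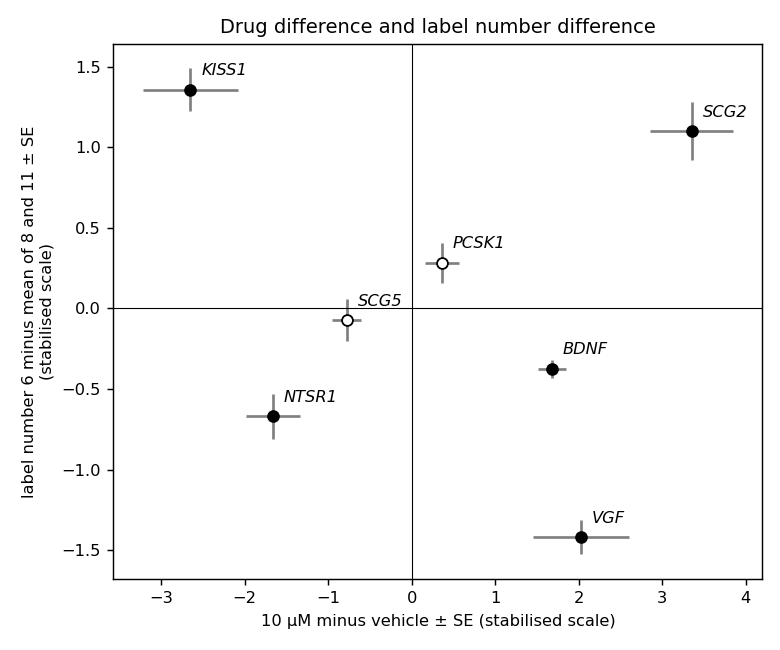
Difference of 10 µM from vehicle (x axis) against the difference of label number 6 from the mean of numbers 8 and 11 (y axis), both on the stabilised scale with SE bars, for 7 genes; filled points passed the F test of label number. KISS1 (-2.65, 1.36) and SCG2 (3.35, 1.10) lie high on opposite sides, and VGF (2.03, -1.42) lies lowest. The x bars come from the fit without the label number and the y bars from the fit with it, so their lengths cannot be compared.

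Whether the drug response itself depended on the label number was tested with the interaction of number and drug, taking vehicle against any dose. None of the 7 genes passed (limma adjusted p = 1 for each, lowest unadjusted p = 0.0930), and 1 of 17767 genes did (ENSG00000213058, limma adjusted p = 3.07e-04; 0.00563% of genes), with 695 at an unadjusted p under 0.05. With a slope over dose rank in place of vehicle against any dose, 34 genes (0.191%) and 0 of the 7 were called, and 1 of the 7 had an unadjusted p under 0.05 (lowest 0.0369). With 1 vehicle library per number these tests have little precision, and they do not show that the 3 numbers responded alike. The NTSR1 difference at 10 µM ran from -2.25 to -1.23 and that of SCG2 from 2.85 to 3.85.

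Across the 12 libraries the pairs named here followed the direction of the drug difference. Once the dose means were removed, some of these pairs cut across it and others kept their sign. These correlations are descriptions: the 12 points share 4 doses and 3 label numbers, and n = 12. SCG2 and NTSR1 ran opposite to each other (r = -0.95), as did VGF and KISS1 (r = -0.97) and BDNF and KISS1 (r = -0.94). SCG2 and BDNF had r = 0.77, and KISS1 and NTSR1 r = 0.49. Each dose mean was then removed, which leaves mostly the label number. SCG2 and NTSR1 (r = -0.84), VGF and KISS1 (r = -0.96) and BDNF and KISS1 (r = -0.92) stayed opposed. SCG2 and BDNF, in contrast, had r = -0.84 and KISS1 and NTSR1 r = -0.74. SCG2 and KISS1, opposed across all libraries (r = -0.54), then ran together (r = 0.92). The 2 genes that were higher with the drug here, SCG2 and BDNF, thus differed in label number direction, and so did the 2 that were lower, KISS1 and NTSR1.

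The genes most like each of the 7 over the 12 libraries were named as the 3 with the highest Pearson r. For SCG2 these were LINC02861 (r = 0.98), ABCC3, an organic anion exporter (0.98), and PHLDB2 (0.98). For BDNF they were GOSR2 (0.99), the antisense gene BDNF-AS (0.99) and DNAJB6 (0.98). VGF was closest to CFAP58, TPBG and DDR2 (r = 0.97 each), and PCSK1 to RNF7, SNX4 and SBSPON (0.92, 0.91 and 0.91). KISS1 ran with RCAN3, TRIM55 and LINC03061 (0.97 each), and NTSR1 with SMAGP (0.99), HMGA1 and STAT5B (0.98 each). SCG5 was closest to GREM1 (0.97), TMA16 (0.95) and AGPS (0.94). Without the 2 libraries farthest from the median of each gene, these r values stayed between 0.86 and 0.99.

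GREM1, a secreted inhibitor of bone morphogenetic proteins, is also the gene beside SCG5 on chromosome 15, with 20.9 kb between them. Its stabilised value was 9.46, 8.66 and 8.72 in vehicle and 7.46, 7.83 and 7.82 at 10 µM in libraries 6, 8 and 11. The groups did not overlap, and GREM1 was lower by 1.24 on the stabilised scale at 10 µM. GREM1 was singled out as the gene most like SCG5 in these libraries, and SCG5 was chosen with its response known. The fall of GREM1 and its likeness to SCG5 at 1 µM follow from that choice, so no p-value is given. Like SCG5, GREM1 was lower in 1 µM library 6 (8.04) than in 1 µM libraries 8 and 11 (8.89 and 8.83). This comparison of neighbours was added after the values were seen.

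The nearest tested protein-coding gene on each side of the 7 genes gave 14 neighbours. Of these 1 rose and 4 fell at 10 µM in limma, while 11.2% of all tested genes rose and 11.4% fell. GREM1 is 1 of the 4 that fell, and its values were known before the neighbours were listed. NAT16, 4.90 kb from VGF, rose by 1.07 ± 0.17 (SE; limma adjusted p = 0.00117) from values of 4.86 to 5.33 in vehicle, near the table minimum. It passed the filter only through the 3 libraries at 10 µM and 1 at 5 µM, so it was tested because it was high there. PLEKHA6, 22.4 kb from KISS1, fell by 0.78, SLCO4A1, an organic anion transporter gene 23.1 kb from NTSR1, by 0.57, and CAST, the calpain inhibitor gene 91.1 kb from PCSK1, by 0.40 (limma adjusted p = 0.0115, 0.00871 and 0.00182). The 2 neighbours of BDNF and the 2 of SCG2 did not pass, but the 2 of SCG2, AP1S1 beside VGF and ELL2 beside PCSK1 passed with the replicate block. GREM1, PLEKHA6 and SLCO4A1 did not pass without number 8 or without number 11, and NAT16 and CAST without number 8.

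Genes with the full cAMP response element were called at 10 µM about as often as genes with any promoter entry. Among 391 tested genes with TGACGTCA in a promoter window, VGF and PCSK1 left out, 38 (9.72%) rose and 48 (12.3%) fell at 10 µM, or 22% in all, with a median difference of -0.03. Over all 11636 tested genes with an entry in the promoter table it was 24.6% in all (12% rose and 12.6% fell). At 1 µM 4 of the 391 rose and 4 fell.

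The rest of the granule and peptide machinery was described by lists that leave the 7 genes out. These lists, like the marker lists above, were chosen with earlier results of these data known. Their counts and p-values are therefore a description. Of 28 granule cargo and release genes 22 had a value and 19 were tested, of which 4 rose, 5 fell and 10 did not pass at 10 µM (7 and 7 with the replicate block; median difference -0.03, against 0 over all genes). Over all tested genes 11.2% rose and 11.4% fell at 10 µM, and 38.4% were called with the block, and the list counts below are to be read against these shares. RAB27B, a small GTPase that docks secretory vesicles, rose by 1.62 ± 0.34 (SE; limma adjusted p = 0.00583), and RAB3D, which acts on secretory granules, by 0.67 (0.0225). PTPRN2, a membrane protein of dense-core granules, fell by 1.01 ± 0.13 (SE; limma adjusted p = 3.75e-04), and SYT7, a calcium sensor of release, by 0.61 (0.0169), with no value above the filter at 5 or 10 µM. Thus genes of release changed in both directions beside the higher SCG2 and VGF.

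Among the genes that cut and trim precursors or break peptides down, 20 of 26 were tested, and 4 rose and 1 fell at 10 µM (9 and 3 with the replicate block; median 0.17; over all genes 22.6% were called and 38.4% with the block). QPCT, which forms the N-terminal pyroglutamate found on neurotensin and other peptides, rose by 1.10 ± 0.10 (SE; limma adjusted p = 3.73e-05), and had risen by 0.70 at 1 µM (0.00586). CPD, a carboxypeptidase that trims cut precursors, rose by 0.70 and ECE1, the endothelin-converting enzyme, by 0.60 (limma adjusted p = 0.00710 and 0.00425). MME, or neprilysin, an enzyme that degrades many peptides, fell by 0.70 (limma adjusted p = 0.00186) from a high level of 15.8. PCSK1 itself stood at 6.15 in vehicle on this scale, which is not corrected for length.

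In the fit without the replicate block, most of the receptors and sorting partners of BDNF did not pass. Of 28 genes of the neurotrophin list 17 had a value and 16 were tested; 3 rose, 2 fell and 11 did not pass at 10 µM (7 and 2 with the replicate block; median 0.21; over all genes 22.6% were called and 38.4% with the block). NGFR, the low-affinity neurotrophin receptor that binds proBDNF, fell by 2.12 ± 0.40 (SE; limma adjusted p = 0.00331), from a mean count of 233 to 13.6. SORL1, a sorting receptor, fell by 0.93, while its relative SORCS2, a co-receptor of NGFR, rose by 1.20 (limma adjusted p = 3.52e-04 and 4.63e-04). MAGED1, an adaptor that binds NGFR, rose by 0.87 (limma adjusted p = 0.00251). NTRK2, the BDNF receptor kinase, was at 7.11 ± 0.71 in vehicle and 6.71 ± 0.09 at 10 µM (SD, n = 3 each) and did not pass (limma adjusted p = 0.400). Sortilin (SORT1) was 9.11 ± 0.25 in vehicle and 9.47 ± 0.25 at 10 µM (SD, n = 3 each; limma adjusted p = 0.191, and 0.00156 with the replicate block).

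Among other peptide genes and receptors the calls are given beside the same shares over all genes, 22.6% and 38.4% with the block. Of 52 other neuropeptide and hormone genes 16 had a value, and EDN1, the endothelin precursor, was the 1 that passed at 10 µM, with a fall of 0.57 (limma adjusted p = 0.00837; 1 rose and 2 fell with the replicate block; median -0.05). EDN1 passed the filter only through its 3 vehicle libraries, so it was tested because it was high there. Of 53 peptide receptor genes 16 had a value and 12 were tested, with 1 higher and 2 lower (1 and 3 with the replicate block; median -0.09). VIPR1, a receptor of vasoactive intestinal peptide that signals through cAMP, rose by 0.92 from 5.26, near the table minimum, to 6.17 (limma adjusted p = 0.00703), and passed the filter only through 3 libraries at 5 and 10 µM. ADCYAP1R1, the receptor of the related peptide PACAP, fell by 0.62 and PTH1R, the parathyroid hormone receptor, by 0.69 (limma adjusted p = 0.00245 and 0.0195). Without number 8 or without number 11, leaving 2 libraries per group, the 10 µM calls of the 16 named list genes were lost except those of QPCT, PTPRN2, SORCS2 and SORL1, and MME was lost only without number 8. RAB3D was also lost without any 1 of vehicle 8, vehicle 11, 10 µM library 6 or 10 µM library 11, SYT7 without vehicle 11 or 10 µM library 6, and PTH1R without vehicle 6 or 10 µM library 6.

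**Figure D5:**
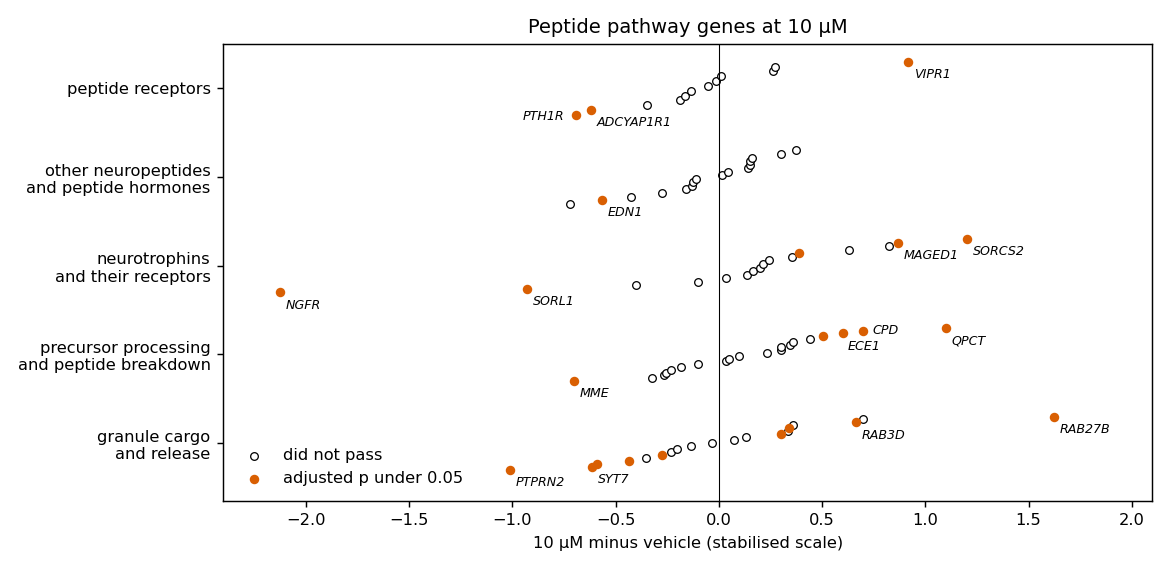
Difference at 10 µM from vehicle (x axis, stabilised scale) of every tested gene in 5 peptide pathway lists (y axis, genes of a list spread by rank), with genes that passed limma at an adjusted p under 0.05 in orange and the others open. NGFR (-2.12) lies farthest below 0 and RAB27B (1.62) farthest above, and orange points lie on both sides of 0 in 4 of the 5 lists.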

How the data were processed

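The deposited values are log2-like expression values that the authors had variance-stabilised and rounded to 3 significant digits. The submitters' processing notes name DESeq2 and GRCh38. The aligner, counter, strand setting and annotation release are not given in the sources used here. Reads that named no gene (no feature 36.2% to 41.4%, not unique 19.3% to 25.6%, ambiguous 2.40% to 2.94%, not aligned 0.793% to 1.82%) stayed out of tests. Symbols matched 21166 of 21207 genes. Counts and depth were recovered by inverting the stabilising curve; 96.4% of 60126 values of at most 20 reads came out whole within 0.005 on the stabilised scale, against 25.4% with depths of the wrong library. From a value of 10 up, counts carry the rounding step of 0.1.

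Genes above 5.86 in at least 3 libraries (17767) were fitted with limma 3.58.1 in R 4.3.3, with a variance trend, 4 groups and all 12 libraries. Tests were two-sided, with Benjamini-Hochberg adjustment and calls under 0.05; the model was tested on simulated data. Same-numbered libraries deviated together from their group means (r 0.316 to 0.777 in 18 pairs; -0.711 to 0.569 in 36 other pairs), so the label number was used as a block in a second fit. List genes named are up to 4 per list with the largest called difference at 10 µM, plus receptors of the 7 genes. Members and lists were chosen with earlier results of these data known. Alternatives were other filters, the block, quantile normalisation, log2(count + 1), 2 groups only and left-out libraries.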

Additional observations from a re-analysis of the deposited data

How the results depend on the processing

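The number of genes called at 1, 5 and 10 µM was 319, 2684 and 4015. It was 2135, 5436 and 6824 with the label number as a replicate block, and 48, 1601 and 2553 with only the 2 groups compared in the fit. With libraries left out it ranged from 2 to 2173 at 1 µM, from 137 to 4939 at 5 µM and from 599 to 5935 at 10 µM. The label number test called 5479 genes, and 3634 to 5263 with a library left out. The test of number by drug called 1 gene, 1 to 3 with a library left out, 2 with no filter and 34 with slopes over dose rank; it was not run without a vehicle library, where 1 number would have no vehicle. The NTRK2 difference of -0.40 became 0.0083 without vehicle library 6, and was as low as -0.61 with another library left out. The block lost no call of a named list gene or neighbour. The cause of these shifts was not tested.

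Among recomputed differences of the 7 genes, 268 moved by less than the spread between replicates. The other 20 include SCG2 (5.52) and SCG5 (-2.76) at 10 µM on the log2(count + 1) scale, where low genes are less compressed. They also include PCSK1 at 1 µM, where the main difference was 0. Small shifts were counted there too, such as to -0.0117 without 1 µM library 8. Depth limits SCG5, PCSK1 and vehicle SCG2, which rest on 1 to 54 reads.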
